A study of Mus musculus with 2 samples.

Results

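Translation initiation factors are the proteins that bring the initiator tRNA, the messenger RNA and the ribosomal subunits together at a start codon. Their genes were taken as every gene of the deposited table whose name starts with Eif and a digit, leaving out the eIF2 kinases (Eif2ak names) and pseudogene names. This gave 51 rows of 22838, and 50 genes once Eif3j1 and Eif3j2, which the table lists at an identical locus, were summed. The cells were NIH3T3, an established line of mouse fibroblasts. A first group was untreated and the other received 100 µM ALA for 16 h, with 1 library each. ALA is not spelled out in the labels, and in heme research it is the short form of δ-aminolevulinic acid, from which heme is made. No genotype, transgene or second agent is named for either group.

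In initiation, eIF2 delivers the initiator tRNA to the small ribosomal subunit, with eIF1, eIF1A, eIF3 and eIF5 bound, and eIF4F brings the capped messenger RNA. The subunit scans to a start codon, eIF2 hydrolyses its GTP and leaves bound to GDP, and eIF5B joins the large subunit. eIF2B then recharges eIF2 with GTP, and this step is blocked when a kinase phosphorylates eIF2. One such kinase, HRI, the product of Eif2ak1, is active when heme is scarce, which ties this pathway to heme. Messenger RNA levels show neither phosphorylation nor protein.

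Levels are FPKM, a read-based measure per transcript length and sequencing depth, with 1 value per library. Which total the depth term used is not given in the sources used here. A gene is called measured where its mean over both libraries reaches 1 FPKM, and 47 of the 50 initiation factor genes were measured. Differences are log2((ALA FPKM + 1)/(untreated FPKM + 1)), a scale that understates the change of low genes. Higher and lower describe the sign of this ratio, and 1.5-fold on the same scale is the threshold for counting a gene as apart. With 1 library per group there is no replicate, no test and no p-value, and every difference is one between these 2 libraries. Depth was estimated at 22500000 reads untreated and 30600000 with ALA. Approximate 95% counting intervals built on that estimate cover counting error only. Of 10 fibroblast markers, 9 were measured, among them Col1a1 at 1047 and 980 FPKM, and Lum was listed at 0 in both libraries. Their summed level was 12690 FPKM untreated and 11162 with ALA. Of these markers only Thy1, at 60.2 and 38.8 FPKM, was 1.5-fold lower. No blood or endothelial marker was measured, with Cd68 at 0.237 and 1.40 FPKM, and of epithelial and muscle markers only Cdh1 (1.23 and 0.944 FPKM) and Des (1.95 and 1.12 FPKM) were. Epcam, Krt18, Myod1 and Myog were listed at 0 in both libraries. A role of these markers in any difference was not tested.

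The libraries were less than 1.5-fold apart for 45 of the 47 measured initiation factor genes. Of all 10928 measured genes 5222 were higher and 5706 lower with ALA, the background for the counts by direction below. Of the 47 measured initiation factor genes 23 had a higher and 24 a lower value with ALA. Their median log2 ratio was -0.01, beside -0.02 over all 10928 measured genes. Only Eif4ebp3 was at least 1.5-fold higher and only Eif5a2 at least 1.5-fold lower. In a bulk sample, less RNA per cell and fewer expressing cells cannot be told apart. Each call is 2.13% of the 47 genes, where 5.89% of all measured genes were 1.5-fold higher and 7.15% were 1.5-fold lower. Both genes have means under 5 FPKM. The middle of the distribution, from the lower to the upper quartile, spanned 0.28 log2 for the initiation factors and 0.44 for all measured genes. Above a mean of 10 FPKM it spanned 0.26 for 45 initiation factors and 0.37 for 6568 genes. None of those 45 reached 1.5-fold, where 3.03% of the 6568 were 1.5-fold higher and 4.11% 1.5-fold lower. The median of the mean levels was 75.1 FPKM for the 45 and 26.0 FPKM for the 6568, so this cut does not match them by level.

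**Figure D1:**
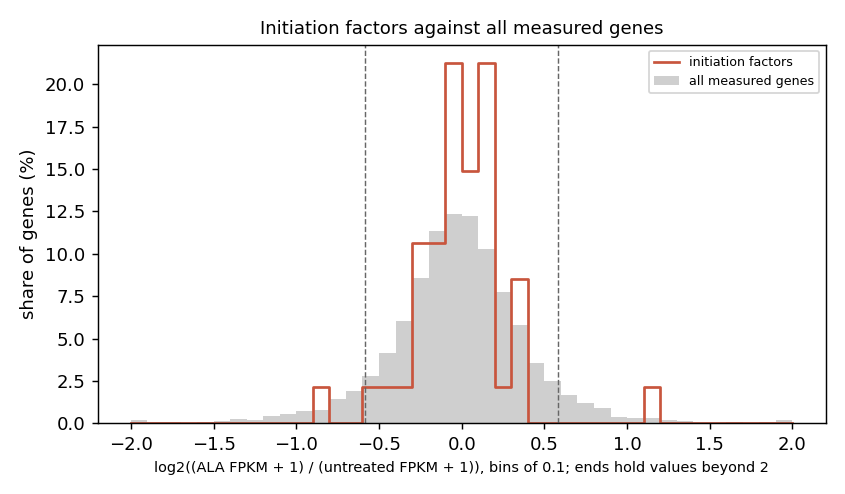
Share of genes (%) in bins of 0.1 of the log2 ratio of ALA to untreated, for all 10928 measured genes (grey bars) and for 47 initiation factor genes (line); dashed lines mark 1.5-fold. The quartiles of the initiation factors span 0.28 and those of all genes 0.44, with Eif5a2 at -0.81 and Eif4ebp3 at 1.15 outside the dashed lines.

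Together the 50 genes summed to 6815 FPKM in the untreated library and 6834 FPKM with ALA, or 1.26% and 1.33% of all FPKM. Levels per length ranged widely. Eif3h had the highest mean, with 935 FPKM untreated and 862 with ALA. Eif5a followed with 560 and 706 FPKM, Eif3e with 648 and 610 FPKM, Eif1 with 627 and 527 FPKM, and Eif4a1 with 503 and 536 FPKM. Of these 5 abundant genes Eif5a and Eif4a1 were higher in the ALA library and the other 3 lower. Parts of these transcripts also occur in transcripts of other genes: 66.5% of the 41-base stretches of Eif4a1, 34.2% of Eif1, 31.1% of Eif3h, 30.7% of Eif3e and 9.16% of Eif5a, 41 bases being the read length. How reads of such stretches were assigned is not given in the sources used here, so these levels are uncertain.

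**Figure D2:**
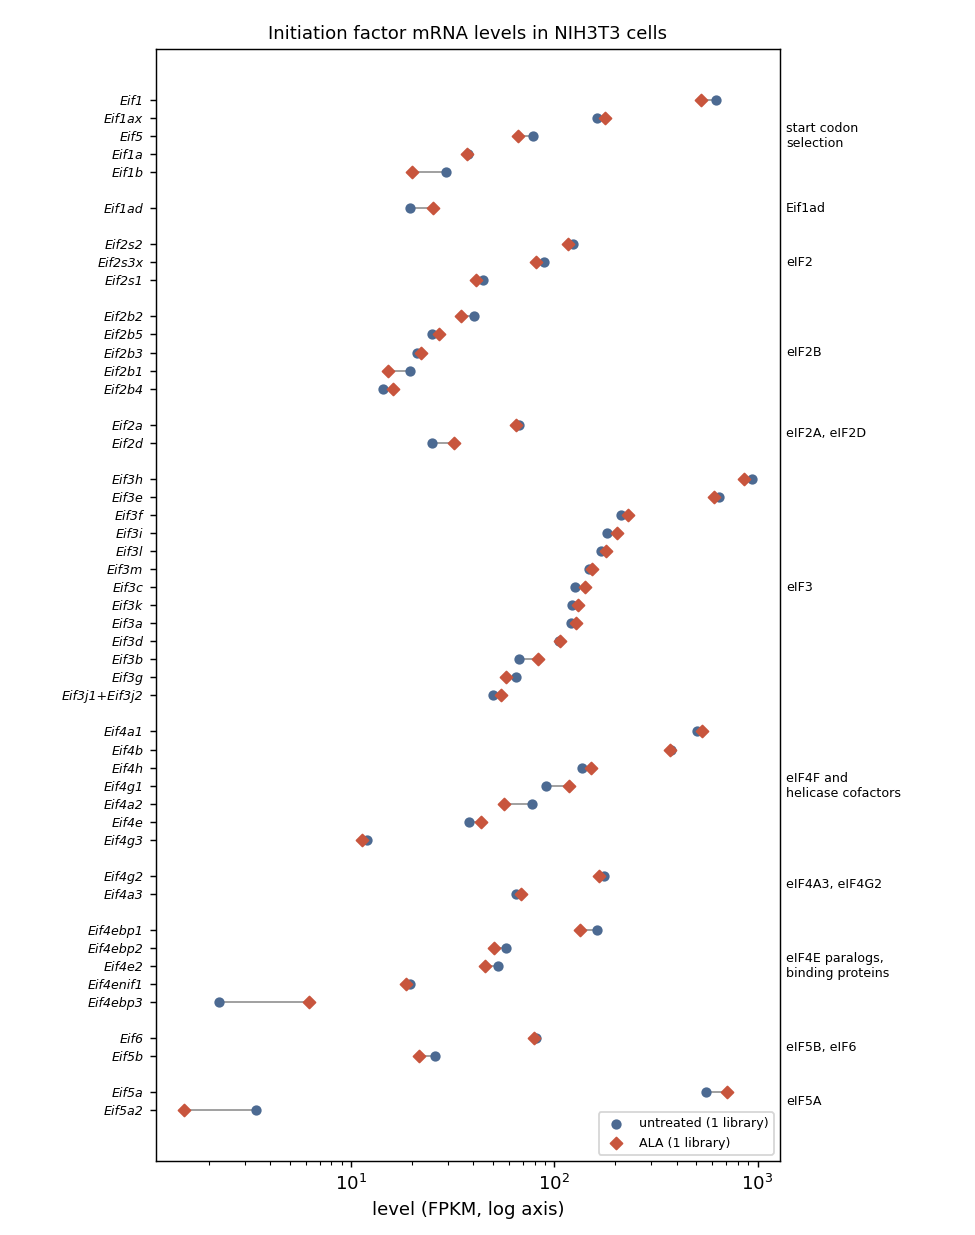
Level in FPKM (log axis) of the 47 measured initiation factor genes in the untreated library (circles) and the ALA library (diamonds), ordered by role and by mean level. The symbols of most genes nearly coincide, and the widest gaps are those of Eif4ebp3 (2.24 and 6.21 FPKM) and Eif5a2 (3.40 and 1.51 FPKM).

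The factors that select the start codon had 4 of 5 genes lower in the ALA library, with a median log2 ratio of -0.24. Without Eif1, which shares over 10% of its sequence with other genes, the median was -0.13. Eif1, whose product guards against wrong start codons during scanning, stood at 627 FPKM untreated and 527 with ALA (log2 ratio -0.25). Its paralog Eif1b had 29.2 and 20.04 FPKM (log2 ratio -0.52, counting interval -0.67 to -0.37), the lowest of this group. Eif5, which encodes the GTPase activator of eIF2, had 78.2 and 66.0 FPKM, a log2 ratio of -0.24. Eif1ax and Eif1a encode eIF1A. Eif1ax, the only gene of this group that was higher with ALA, had 163 and 178 FPKM (0.13, counting interval 0.10 to 0.16). Eif1a had 37.6 and 37.3 FPKM, and its log2 ratio of -0.01 turned positive with equal library totals. No member of this group reached 1.5-fold. Eif1ad, which shares the eIF1A domain but is not an established initiation factor, had 19.6 and 25.3 FPKM, a log2 ratio of 0.36, and 15.3% of its exon bases lie inside Banf1 on the opposite strand.

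Eif1 and Eif1b are close paralogs, and their first 41 coding bases, the length of a read in these libraries, are shown because both had lower values with ALA. Capitals mark the bases that differ between the paralogs, in GENCODE transcripts.
Eif1: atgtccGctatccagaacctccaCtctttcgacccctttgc
Eif1b: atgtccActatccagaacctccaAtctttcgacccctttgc
Over the whole coding sequence of 339 bases the paralogs were identical at 81.1% of positions, the longest identical run had 25 bases, and no stretch of 41 bases was shared. Eif1b made up 4.45% of the summed FPKM of the pair untreated and 3.66% with ALA.

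The 3 measured subunits of eIF2 were all slightly lower with ALA. Eif2s1, the gene of the α subunit that the eIF2 kinases phosphorylate, stood at 44.4 FPKM untreated and 41.4 with ALA (log2 ratio -0.10). Eif2s2, the β subunit gene, had 124 and 117 FPKM (-0.08). Eif2s3x, the X-linked gene of the γ subunit that binds GTP and the initiator tRNA, had 88.8 and 80.9 FPKM (-0.13). Equal library totals shift such ratios up by about 0.08. Of Eif2s3x 36.5% and of Eif2s2 29.9% of the 41-base stretches occur in other genes. Eif2s3y, the Y-linked γ subunit gene, was at 0.105 and 0.311 FPKM, about 4 and 17 reads, and was not measured by the rule. Its coding sequence was identical to that of Eif2s3x at 86.3% of positions with no shared stretch of 41 bases.

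The eIF2B genes, which encode the exchange factor of eIF2, lay on both sides of 0 around a median of 0.07. Eif2b1, the α subunit gene, had 19.5 FPKM untreated and 15.1 FPKM with ALA (log2 ratio -0.35, counting interval -0.47 to -0.22). Eif2b2, the β subunit gene, had 40.4 and 34.9 FPKM (-0.20). The other 3 subunit genes were higher, Eif2b4 with 14.4 and 16.1 FPKM (0.15), Eif2b5, which carries the catalytic domain, with 25.1 and 27.2 FPKM (0.11), and Eif2b3 with 21.04 and 22.2 FPKM (0.07). The α and β genes thus lay on the other side of 0 from the γ, δ and ε genes, and no eIF2B gene reached 1.5-fold. The counting interval of the γ gene Eif2b3, -0.01 to 0.16, includes 0, so its side is uncertain. Of the factors that can bring initiator tRNA without eIF2, Eif2d had 25.1 and 31.97 FPKM (0.34, counting interval 0.26 to 0.42), and Eif2a had 67.0 and 64.5 FPKM, and its log2 ratio of -0.05 changed sign with equal library totals.

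Of the eIF3 genes, whose products form the scaffold on the small ribosomal subunit, 10 were higher with ALA and 3 lower, with a median log2 ratio of 0.08. The 10 include the summed eIF3j pair, whose direction is uncertain, as set out below. The range was narrow and no subunit reached 1.5-fold. Eif3b, which anchors the complex through its RNA-recognition and propeller domains, had the highest ratio, with 67.3 FPKM untreated and 82.9 FPKM with ALA (0.30, counting interval 0.24 to 0.35). Eif3i, a propeller subunit bound to eIF3b, had 181 and 203 FPKM (0.17), Eif3c 127 and 142 FPKM (0.16), and the largest subunit gene, Eif3a, 121 and 128 FPKM (0.08). Eif3g, also a partner of eIF3b, had the lowest ratio, with 65.2 and 57.8 FPKM (-0.17, counting interval -0.27 to -0.08). The remaining subunit genes Eif3d, Eif3f, Eif3k, Eif3l and Eif3m lay between 0.03 and 0.11.

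Levels of the eIF3 subunits were unequal in both libraries although the complex holds its subunits, apart from the loosely bound eIF3j, in equal number. Eif3h and Eif3e, at 935 and 648 FPKM untreated, were 7.36 and 5.09 times the median of the 13 subunit units, which was 127 FPKM. With ALA they were 6.07 and 4.29 times the median of 142 FPKM. Both were lower in the ALA library, with log2 ratios of -0.12 and -0.09. The other subunits ranged from 49.8 FPKM for the eIF3j pair to 213 FPKM for Eif3f untreated, and from 54.4 to 230 FPKM with ALA. Subunits with no shared 41-base stretch were found across that range, with Eif3f at 213, Eif3l at 171, Eif3k at 122, Eif3a at 121 and Eif3g at 65.2 FPKM untreated. Of Eif3h, 30.1% of the stretches occur in a single other gene model, AC122253.2, and of Eif3e 22.6% in Eif3s6-ps2. A role of these copies in the high levels was not tested. Eif3e and Eif3h both lie on chromosome 15 of GRCm38, as do Eif3d and Eif3l, which had 105 and 171 FPKM untreated.

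**Figure D3:**
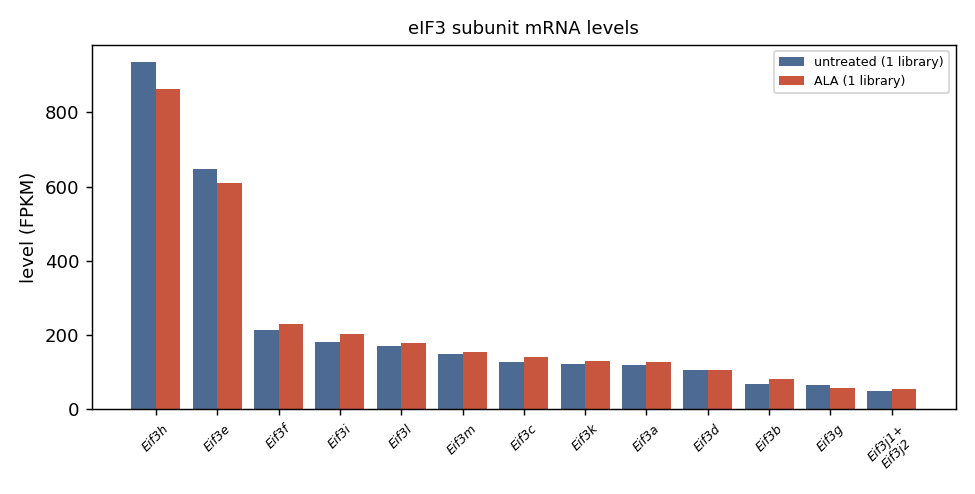
Level in FPKM of each eIF3 subunit gene in the untreated library (blue) and the ALA library (red), ordered by mean. Eif3h and Eif3e stand above the other 11 units, whose highest untreated value is 213 FPKM, in both libraries.

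Eif3j1 and Eif3j2 encode eIF3j, a loosely bound factor that acts in start codon recognition and ribosome recycling. The Eif3j1 row went from 0.154 FPKM untreated to 54.1 FPKM in the ALA library (log2 ratio 5.58), and the Eif3j2 row from 49.7 to 0.301 FPKM, a log2 ratio of -5.28. Each library thus gave nearly the whole level to 1 row, and a different row in each. The sum was 49.8 FPKM untreated and 54.4 FPKM with ALA (log2 ratio 0.13, counting interval 0.08 to 0.17). The GENCODE transcript used here has 5413 bases for Eif3j1 and 2379 for Eif3j2, and the interval takes 5413 for both libraries. Which lengths lie behind the FPKM values of the 2 rows is not known, so the direction of the sum is uncertain. The deposited table gives both rows the locus on chromosome 2 from 122028579 to 122118386, which it also gives to Spg11. GENCODE places Eif3j1 there, on the plus strand from 122028546 to 122056598, and Eif3j2 on chromosome 18, minus strand, from 43475418 to 43477796. The coding sequences of 783 and 789 bases differ by a single gap of 6 bases, and 741 of the 743 stretches of 41 bases in the Eif3j1 coding sequence occur in that of Eif3j2. Over the whole transcripts, 92.2% of the stretches of Eif3j2 occur in Eif3j1 and 40.1% of those of Eif3j1 in Eif3j2. The rows are not read as 2 genes here. The sum is used in all counts except the promoter counts, which take single rows, and the setting that keeps the rows apart. Eif3j1 also shares 18.99% of its exon bases with Spg11 on the opposite strand, which had 10.5 and 8.46 FPKM.

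**Figure D4:**
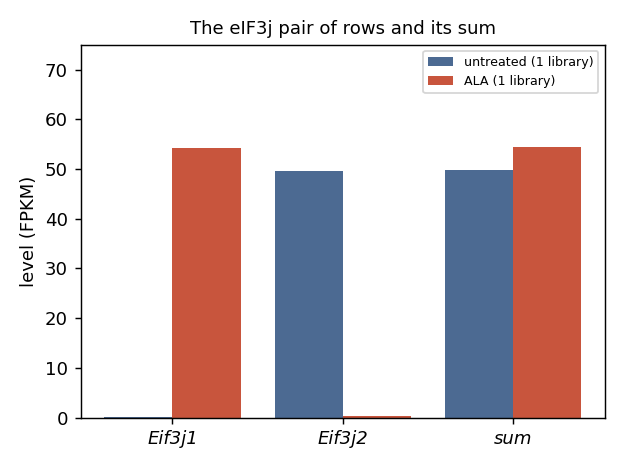
Level in FPKM of the rows Eif3j1 and Eif3j2 and of their sum, untreated (blue) and ALA (red). Each row is near 0 in 1 library, while the sum is 49.8 and 54.4 FPKM.

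The genes of eIF4F, the complex that binds the cap and unwinds the leader of the messenger RNA, and of its helicase cofactors Eif4b and Eif4h were higher with ALA in 4 of 7 cases, with a median log2 ratio of 0.09. Eif4g1, the scaffold gene, had 91.4 FPKM untreated and 118 FPKM with ALA (log2 ratio 0.37, counting interval 0.33 to 0.40). Eif4e, the cap-binding subunit gene, had 38.3 and 43.5 FPKM (0.18). Of the helicase genes, Eif4a1 had 503 and 536 FPKM (0.09), while its paralog Eif4a2 had 77.4 and 56.7 FPKM (-0.44, counting interval -0.50 to -0.38). Eif4a2 went from 13.3% to 9.57% of the summed FPKM of the pair. Eif4b, a helicase cofactor, had 373 and 371 FPKM, and its log2 ratio of -0.01 changed sign with equal library totals, and Eif4h, another, had 136 and 151 FPKM (0.15). Eif4g3, a second scaffold gene, had 12.0 and 11.4 FPKM (-0.07), also a sign that depends on the scaling. None of the 7 reached 1.5-fold.

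Because Eif4a1 and Eif4a2 had ratios of opposite sign, 1 aligned stretch of 41 coding bases of each is shown, with differing bases in capitals.
Eif4a1: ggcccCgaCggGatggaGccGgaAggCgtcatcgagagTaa
Eif4a2: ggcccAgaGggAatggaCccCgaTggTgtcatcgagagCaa
The coding sequences were identical at 77.8% of aligned positions, with a longest identical run of 20 bases and no shared 41-base stretch. Eif4a1 shares 65.6% of its stretches with Eif4a-ps4, and Eif4a2 shares 15.7% of its stretches with other genes. Eif4a3, a paralog that works in the exon junction complex, had 64.7 and 68.4 FPKM (0.08). Eif4g2, the eIF4G-like factor of cap-independent initiation, had 175 and 167 FPKM, and its log2 ratio of -0.07 changed sign with equal library totals.

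Of the eIF4E paralogs and binding proteins, 4 of 5 measured genes were lower with ALA, with a median of -0.19. Eif4ebp1 encodes 4E-BP1, which holds eIF4E away from eIF4G until mTORC1 phosphorylates it, and had 163 FPKM untreated and 133 FPKM with ALA (-0.29, counting interval -0.33 to -0.24). Eif4ebp2, its paralog, had 57.6 and 50.4 FPKM (-0.19). The level of Eif4ebp1 was 4.25 times that of Eif4e untreated and 3.06 times with ALA. Eif4e2, a cap-binding protein linked to translational repression, had 52.6 and 45.8 FPKM (-0.20), and Eif4enif1, the transporter of eIF4E, had 19.6 and 18.7 FPKM, and its log2 ratio of -0.06 changed sign with equal library totals. Eif4e1b was listed at 0 in both libraries, and Eif4e3 was at 0.0208 and 0.0285 FPKM, about 1 and 2 reads.

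Eif4ebp3, the third binding protein gene, went from 2.24 to 6.21 FPKM, about 38 and 141 reads, a 2.77-fold ratio of the FPKM values (log2 ratio 1.15, counting interval 0.77 to 1.53). With a pseudocount of 5 FPKM its log2 ratio was 0.63. GENCODE places it on the plus strand of chromosome 18 from 36664060 to 36665917. There, 65.9% of its 41-base stretches also belong to the gene model AC115631.1. The table lists the neighbour Ankhd1 at 15.9 FPKM untreated and 14.9 in the ALA library (log2 ratio -0.09). Reads in the shared stretches cannot be assigned to Eif4ebp3 alone. Of the members with under 10% of shared or overlapping sequence, 31 in number, none was 1.5-fold higher.

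After start codon recognition, Eif5b, the GTPase that joins the subunits, stood at 25.9 FPKM untreated and 21.5 with ALA (log2 ratio -0.26), with 16.8% of its exon bases inside Rev1 on the opposite strand. Eif6, which keeps free large subunits from joining, had 81.7 and 79.1 FPKM, and its log2 ratio of -0.05 changed sign with equal library totals.

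The eIF5A genes differed in opposite directions. eIF5A carries hypusine, a modified lysine, and helps ribosomes through difficult stretches of peptide. Eif5a stood at 560 FPKM untreated and 706 with ALA, a 1.26-fold ratio (log2 ratio 0.33, counting interval 0.31 to 0.36). Eif5a2, its far less abundant paralog on chromosome 3 of GRCm38 (plus strand, 28781276 to 28798846), had 3.40 and 1.51 FPKM, about 384 and 233 reads (log2 ratio -0.81, counting interval -0.96 to -0.65). Eif5a2 shared no 41-base stretch with another gene, and no exon base with another gene of the deposited table that matched a model. Its first 41 coding bases are shown beside those of Eif5a, with differing bases in capitals.
Eif5a: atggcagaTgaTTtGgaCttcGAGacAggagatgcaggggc
Eif5a2: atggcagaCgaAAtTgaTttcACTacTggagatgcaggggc
The coding sequences were identical at 72.7% of aligned positions, with a longest identical run of 14 bases. Eif5a2 made up 0.603% of the summed FPKM of the pair untreated and 0.214% with ALA. With a pseudocount of 5 FPKM no member was 1.5-fold lower, and the log2 ratio of Eif5a2 was then -0.37. It was -1.12 with a pseudocount of 0.1 FPKM, and the plain ratio of its FPKM values, ALA over untreated, was 0.446. The enzymes that make hypusine had log2 ratios of 0.13 for Dohh and -0.07 for Dhps, the latter within the shift of equal library totals. Of Dohh 66.5% of the 41-base stretches occur in other genes.

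**Figure D5:**
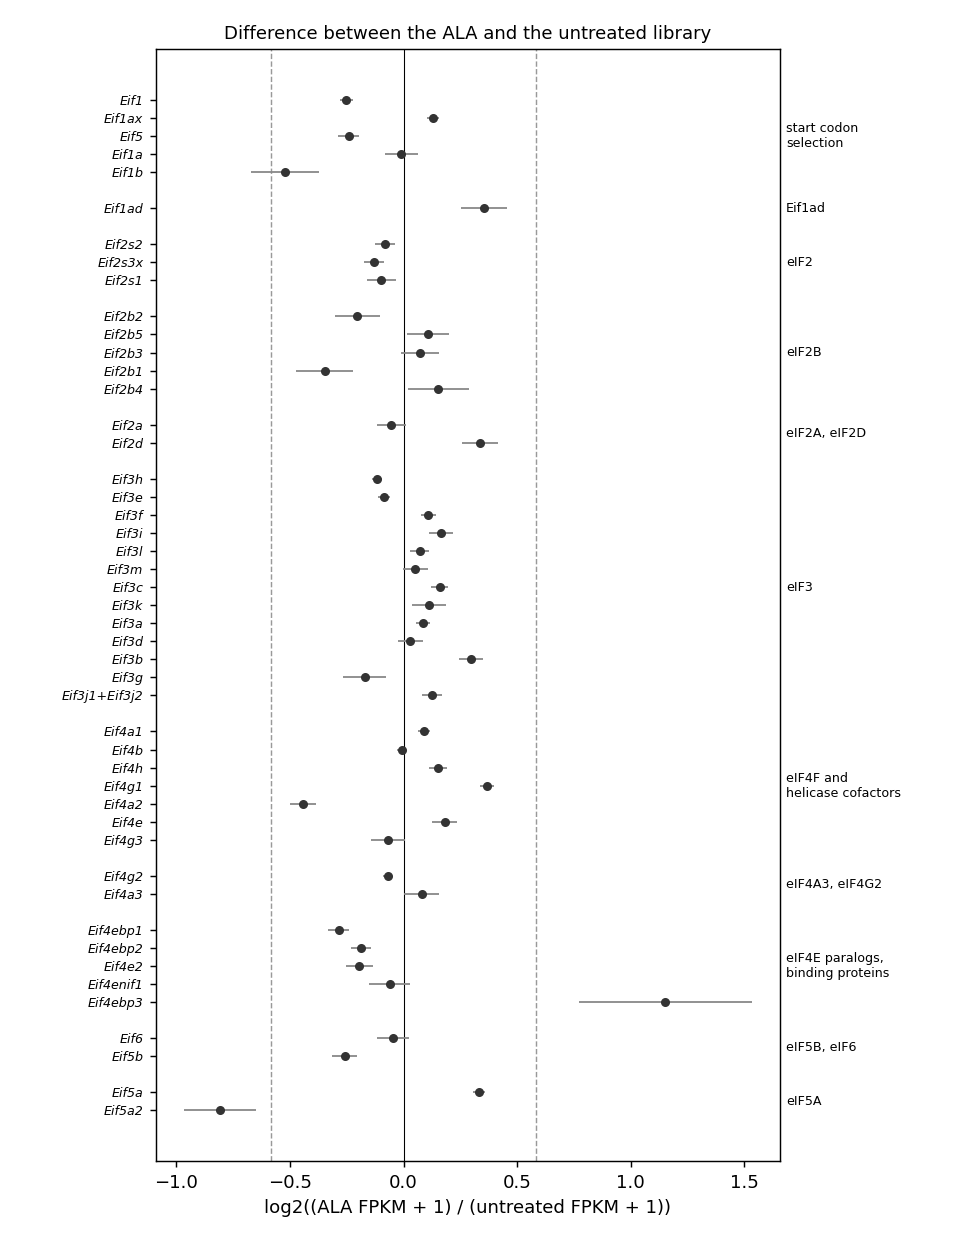
Log2 ratio of ALA to untreated for the 47 measured genes, ordered by role; bars are approximate 95% counting intervals, which leave out variation between cultures, and dashed lines mark 1.5-fold. Eif4ebp3 (1.15) and Eif5a2 (-0.81) lie beyond the dashed lines.

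Promoters, taken as 250 bases before to 50 after the first listed gene start in RefSeq (GRCm38.p6), were found for 39 members. The letters CACGTG, the E-box bound by MYC and by CLOCK with BMAL1, were present in 8 of them (20.5%), beside 7.24% of 27025 promoters. Among measured genes they were present in 8 of 38 member promoters (21.1%) and in 10.8% of 8360 promoters. The 8 genes were Eif1b, Eif3a, Eif3f, Eif3k, Eif4a1, Eif4g1, Eif4h and Eif5a2, and with ALA 6 of them had higher and 2 lower levels. Directions were not counted for the other genes with an E-box, and a link between E-box and direction was not tested. TGATGNAA, the letters of C/EBP-ATF elements that ATF4 can bind, were present in 1 member promoter, that of Eif2s3x, beside 4.06% of all promoters. Among measured genes the shares were 2.63% of member promoters and 2.02% of all. TGACNNNGC, the core of antioxidant response elements, was present in 7 (17.9%), beside 12.5% of all. Among measured genes it was present in 6 of 38 member promoters (15.8%) and in 15.2% of all, which are close. The 6 include Eif3j1, counted as measured by its own row. Both strands were searched, and sites of 2 motifs overlapped in 1 member promoter. A match is a string of letters and not a bound site. The promoters of Eif4g1, with a log2 ratio of 0.37, and Eif1b, with -0.52, are shown because both hold the E-box, in capitals, while their ratios have opposite signs. They lie on the plus strands of chr16:20672477-20672776 and chr9:120492356-120492655.
Eif4g1: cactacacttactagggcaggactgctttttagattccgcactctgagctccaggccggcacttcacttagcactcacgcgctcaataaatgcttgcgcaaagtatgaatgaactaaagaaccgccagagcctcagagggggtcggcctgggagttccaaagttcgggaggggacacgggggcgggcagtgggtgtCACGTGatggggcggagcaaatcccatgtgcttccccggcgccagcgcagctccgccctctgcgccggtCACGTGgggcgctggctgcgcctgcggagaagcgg
Eif1b: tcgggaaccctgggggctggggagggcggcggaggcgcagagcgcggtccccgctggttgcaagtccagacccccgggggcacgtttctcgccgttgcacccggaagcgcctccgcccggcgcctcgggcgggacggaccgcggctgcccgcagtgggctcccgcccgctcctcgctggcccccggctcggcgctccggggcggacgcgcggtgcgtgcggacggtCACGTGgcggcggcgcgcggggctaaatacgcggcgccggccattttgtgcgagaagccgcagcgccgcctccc

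In the lists of other genes of the pathway, Rps6kb2 was 1.5-fold higher and Ppp1r15a, Mlst8 and Mcts1 were 1.5-fold lower, where 5.89% and 7.15% of all measured genes passed. Rps6kb2 and Mlst8 were among 14 measured genes of their list, and Ppp1r15a and Mcts1 each among 5. The other lists, with 2 to 7 measured genes each, held no gene at 1.5-fold. All 4 eIF2 kinase genes were lower by small amounts, with a median of -0.19 and none at 1.5-fold: the HRI gene Eif2ak1 had 18.3 and 17.995 FPKM (-0.03, within the shift of equal library totals), and Eif2ak2, the gene of the RNA-activated kinase PKR, 13.8 and 10.5 FPKM (-0.36). Eif2ak3, the gene of the endoplasmic reticulum stress kinase PERK, had 9.23 and 7.94 FPKM (-0.20). Of 5 genes for the eIF2 phosphatase, 1 was 1.5-fold lower: Ppp1r15a, the stress-induced targeting subunit GADD34, had 8.95 FPKM untreated and 4.94 with ALA (-0.74), and Ppp1cb was at -0.19. In the list from mTORC1 to eIF4E, 10 of 14 genes were higher with a median of 0.10. There Rps6kb2, an S6 kinase gene, went from 5.12 to 9.90 FPKM (0.83) and Mlst8, a subunit of mTOR complexes, from 11.1 to 6.81 FPKM (-0.63). Both overlap a neighbour, Rps6kb2 in 23.7% of its exon bases with Ptprcap and Mlst8 in 22.5% with Bricd5.

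Among scanning helicases and reinitiation factors the median was 0.07. Mcts1, whose product works with DENR in reinitiation, went from 16.4 to 8.14 FPKM (-0.93), and Dhx29, a helicase for structured leaders, from 7.79 to 11.1 FPKM (0.46). Mcts2, a close copy of Mcts1, went from 14.7 to 19.9 FPKM (0.42), and the pair summed to 31.1 and 28.1 FPKM (-0.14). Mcts1 shared no exact 41-base stretch with another gene, Mcts2 included, and a role of read assignment in these 2 ratios was not tested. Poly(A)-binding proteins and their regulators had a median of -0.11, with Pabpc4 at 0.41 and Paip1 at 0.35, and 75.1% of the stretches of Pabpc4 occur in other genes. Elongation factor genes had 5 of 7 measured members lower, Eef2 (-0.04) within the shift of equal library totals, and a median of -0.13. Eef2k, the kinase that slows elongation, was at -0.41 and Eef1g at 0.22, and 66.2% of the stretches of Eef1g occur in other genes. Termination and recycling genes had a median of -0.06, with Abce1 at 0.24 and Etf1 at -0.10. The mitochondrial initiation factor genes Mtif2 and Mtif3 were at 0.02 and -0.14, and 27.7% of the stretches of Mtif3 occur in other genes. In these 4 lists outside reinitiation no gene reached 1.5-fold.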

How the data were processed

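Messenger RNA of NIH3T3 cells was sequenced as single-end reads of 41 bp, per the labels' protocols. The deposited table holds 1 FPKM value per gene and library and has the columns of a Cufflinks tracking file, per the file headers. FastQC 0.11.5, TopHat2 2.1.1, Cufflinks 2.2.1 and build mm10 are named, per the submitters' processing notes. Which annotation, options, strand setting and scaling were used is not given in the sources used here.

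From the FPKM values, log2 ratios with a pseudocount of 1 FPKM were computed in Python 3.11.15 with pandas 2.3.3 and NumPy 2.4.6. Genes whose mean reached 1 FPKM were counted, and 1.5-fold was the threshold. No count model or test was used, since each group has 1 library. Library depth came from the spacing of low FPKM values in genes with a single transcript over 1500 bp. The ratio of the depths came from 461 genes with low values in both libraries. At the best scaling 22.8% of these lay near a ratio of small whole numbers, beside a median of 12.6% over the scalings tried. The procedure and the calls were checked on simulated counts without isoforms or shared reads, so that check does not cover these features of the data. Reads per gene were FPKM times the longest coding transcript times depth. Gene models came from GENCODE vM21 (GRCm38, the assembly of mm10), where 21557 rows matched a model at the same position, 50 of the 51 member rows among them. Coding sequences were aligned with Biopython 1.88.

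The members, the role groups, the pathway lists and the thresholds were chosen with earlier results of these data known. Values of both libraries are given for members at least 1.5-fold apart, for the highest and lowest ratio of each role group, for the 5 most abundant members, for members that share a locus and for close paralogs, and other members are named beside them. Of each pathway list up to 2 genes with the largest absolute log2 ratio are named. Genes named beyond these rules, such as Eif2ak1, Eef2, Mcts2, Ankhd1, Spg11 and the markers, and the printed promoters were chosen after their values were seen. Alternatives were another pseudocount, scaling, filter, the rows kept apart and members without shared sequence.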

Additional observations from a re-analysis of the deposited data

How the results depend on the processing

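No paired analysis was possible because each group has 1 library, and for the same reason no library could be left out. With equal library totals, which shift all log2 ratios upward by up to 0.08, the median of the members was 0.070, and 7 members changed sign, giving 30 higher and 17 lower. The group medians were then -0.021 for eIF2, 0.15 for eIF2B, 0.16 for eIF3, 0.17 for eIF4F with its cofactors, -0.11 for the eIF4E paralogs and binding proteins and -0.16 for start codon selection. Those of the pathway lists were -0.12 for eIF2 kinases, -0.023 for the eIF2 phosphatase, 0.18 from mTORC1 to eIF4E, -0.029 for poly(A)-binding proteins, 0.15 for scanning helicases and reinitiation, -0.050 for elongation and 0.019 for termination, the last a change of sign. Members 1.5-fold lower numbered 0 with a pseudocount of 5 FPKM. Members 1.5-fold apart numbered 0 in each direction at a mean of at least 5 FPKM, where the filter leaves out both genes, and 2 in each direction with Eif3j1 and Eif3j2 kept apart. With no filter on low values the median of the eIF4E paralogs and binding proteins was -0.061. Over the 31 members with under 10% shared or overlapping sequence the number 1.5-fold higher was 0, the median of the members 0.071, that of eIF4F 0.15 and that of start codon selection -0.13. The cause of these shifts was not tested beyond what the construction of each setting gives. Low levels limit the statements on Eif4ebp3, Eif4e3 and Eif2s3y, which rest on few reads.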
